A study of Mus musculus with 5 samples.

Results

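The genes described here encode the proteins of the cytosolic ribosome. They were taken from the deposited table by symbol: Rpl or Rps followed by a number, with or without the ending a, x, l, l1 or al, and Rplp0, Rplp1, Rplp2 and Rpsa. This rule gave 80 of 12588 genes, 49 of the large (60S) and 31 of the small (40S) subunit, and 129 of 22227 listed transcripts. Among the 80 are 4 paralogs, Rpl22l1, Rpl36al, Rpl7l1 and Rps27l, which stand beside Rpl22, Rpl36a, Rpl7 and Rps27. RNA was sequenced from proliferating neural stem/progenitor cell (NSPC) cultures of C57BL/6J mice, kept without treatment in medium with FGF-2 and EGF at 20 ng/ml each. There were 2 libraries labelled WT (p75NTR+/+ litter mates, replicates 1 and 4) and 3 libraries labelled p75NTR-/- (replicates 1, 2 and 4). The labels state that the cells came from E12.5 embryos, whereas the paper speaks of adult subventricular zone NSPCs. The paper describes the replicates as separate NSPC preparations, and neither source ties a replicate number to a litter or day.

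A ribosome is built from a small subunit, which reads the mRNA, and a large subunit, which joins amino acids into protein. Each ribosomal protein is needed in about the same number of copies, and growing cells give a large part of their mRNA to these genes. Their mRNAs typically start with a C followed by a run of pyrimidines, the 5′ terminal oligopyrimidine (TOP) tract, through which the mTOR pathway and Larp1 regulate their translation. The stalk proteins Rplp0, Rplp1 and Rplp2 recruit elongation factors to the large subunit. Rpl5 and Rpl11 also bind Mdm2, the ubiquitin ligase of p53. In neural stem cells, ribosome production is closely tied to growth and division.

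The reference sequence around the start sites was searched for such runs. Of the 80 genes, 60 were matched by symbol to 71 RefSeq promoters (GRCm38.p6). A C followed by at least 7 pyrimidines lay on the gene's strand within 50 bases of the annotated start in 57 of the 71 windows (80.3%), against 28.8% of all 32851 windows. The letters CCGGAAG, the core of a binding site of ETS factors, occurred on either strand of 25 of the 71 promoters (35.2%), against 8.86% of all promoters. The windows of 30 bases below show 3 paralogs with their partners, and Rplp2, with the pyrimidine run in capitals. These genes were picked from the members whose window held a run, and Rpl22, Rpl36a and Rps27 stand beside the paralogs for comparison. The paralog Rpl7l1 is not shown.
Rpl22 (chr4:152325678-152325707, + strand): cccgtctgaCTCCTCCCTTTCCCgacagcc
Rpl22l1 (chr3:28805502-28805531, + strand): aagcccgttCTCTTCCCacggctgcagctc
Rpl36a (chrX:134585672-134585701, + strand): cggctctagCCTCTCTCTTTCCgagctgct
Rpl36al (chr12:69184018-69184047, - strand): tctgttcgtCCCTTTCCTgttcggcgcgtg
Rps27 (chr3:90213630-90213659, - strand): ccgctttcgCTCCTTTCCggcggtgacgac
Rps27l (chr9:66946055-66946084, + strand): ccgcctccaCTCCTCTCCactcctccccgc
Rplp2 (chr7:141447638-141447667, + strand): cgtcagcgtCTTCCTTTCgccgccggacgc
A run was a condition for showing a window, and the letters of each of the 3 paralogs differed from those of its partner. A match describes the letters of the window and is not evidence of a TOP tract in the mRNA.

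The libraries held between 11688211 and 14452396 counts. Ngfr, the gene that encodes p75NTR, went against the labels: it had 0.980 and 2.08 normalized counts in the libraries labelled WT (replicates 1 and 4), and 9.89, 141 and 251 in those labelled p75NTR-/- (replicates 1, 2 and 4). These are gene sums, which do not separate the deleted part of the allele. Every direction below is therefore between labels, and libraries are named by their labels. The libraries also did not group by label. WT replicate 4 and p75NTR-/- replicate 4 were the most alike (Pearson r = 0.992 across 10786 genes, which are not independent replicates), p75NTR-/- replicates 1 and 2 followed (r = 0.981), and the other pairs lay between 0.929 and 0.947. Markers of NSPCs were measured in all libraries, with Fabp7, a fatty acid binding protein of radial glia, at 6270 to 6927 TPM (the length-normalized level of the table). Of the marker lists for other cells, 1 of 8 genes had a gene sum for microglia, 2 of 7 for endothelial and mural cells and 2 of 6 for fibroblasts, with a summed level of at most 11.4 TPM in any library. Of the neuron and neuroblast list, 5 of 10 genes had one (669.9 to 989 TPM), led by Map2, and of the oligodendrocyte lineage list 5 of 9 (346 to 946 TPM), led by Olig1 and Olig2.

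Ribosomal protein genes took up 4.37% of all counts in WT replicate 1 (95% Wilson interval 4.363 to 4.385) and 4.96% in WT replicate 4 (4.950 to 4.973). In the libraries labelled p75NTR-/-, the share was 4.78% (4.769 to 4.791), 5.23% (5.215 to 5.240) and 5.01% (4.994 to 5.017) in replicates 1, 2 and 4. The intervals cover counting error only. WT replicate 1 had the lowest share, and WT replicate 4 lay within the range of the p75NTR-/- label. Libraries labelled WT averaged 4.668% ± 0.415 (SD, n = 2) and those labelled p75NTR-/- 5.004% ± 0.224 (SD, n = 3), so the difference of 0.336 percentage points was smaller than the SD between the WT libraries. Without WT replicate 1 the difference was 0.0427 percentage points. Per length, the 80 genes made up 9.995% and 11.2% of TPM in the libraries labelled WT, and 11.1%, 12.1% and 11.2% in those labelled p75NTR-/-. In bulk RNA, fewer cells of a type and less RNA per cell cannot be told apart.

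The levels of the single genes, compared per length as TPM, covered a broad range. The highest were Rpl39, a short protein of the exit tunnel, with 7058 ± 675 TPM (SD, n = 5), Rps29, a zinc finger protein of the small subunit, with 6565 ± 869.5 TPM, Rpl41, the smallest ribosomal protein, with 3923 ± 749.6 TPM, Rps9, an early-binding protein of the small subunit, with 2738 ± 193 TPM, and Rps28 with 2504 ± 208 TPM. Of the 80 genes, 51 had a mean level over 1000 TPM and 24 between 500 and 1000, and the median was 1167 TPM. Only 5 were under 500 TPM: Rpl10 (452 ± 66.6), Rpl22l1 (450.0 ± 65.2), Rpl7l1 (103 ± 17.4), Rps12 (42.5 ± 8.54) and Rpl27 (3.84 ± 2.00). Among 79 pairs of neighbours in this order, 8 were further apart than their joint SD, so most of the order is not resolved. TPM also did not follow the annotated lengths of the main transcripts alone. Rpl39 had a mean of 5898 normalized counts at 612 bases, and Rpl37a had 5769 at 558 bases but 1992 TPM. Differences in TPM between genes, such as those of the highest, are therefore uncertain, and the part of the lengths behind TPM was not tested. The genes varied little between libraries, with a median coefficient of variation of 9.91%, and for 72 of them the highest library was less than 1.5-fold above the lowest.

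**Figure D1:**
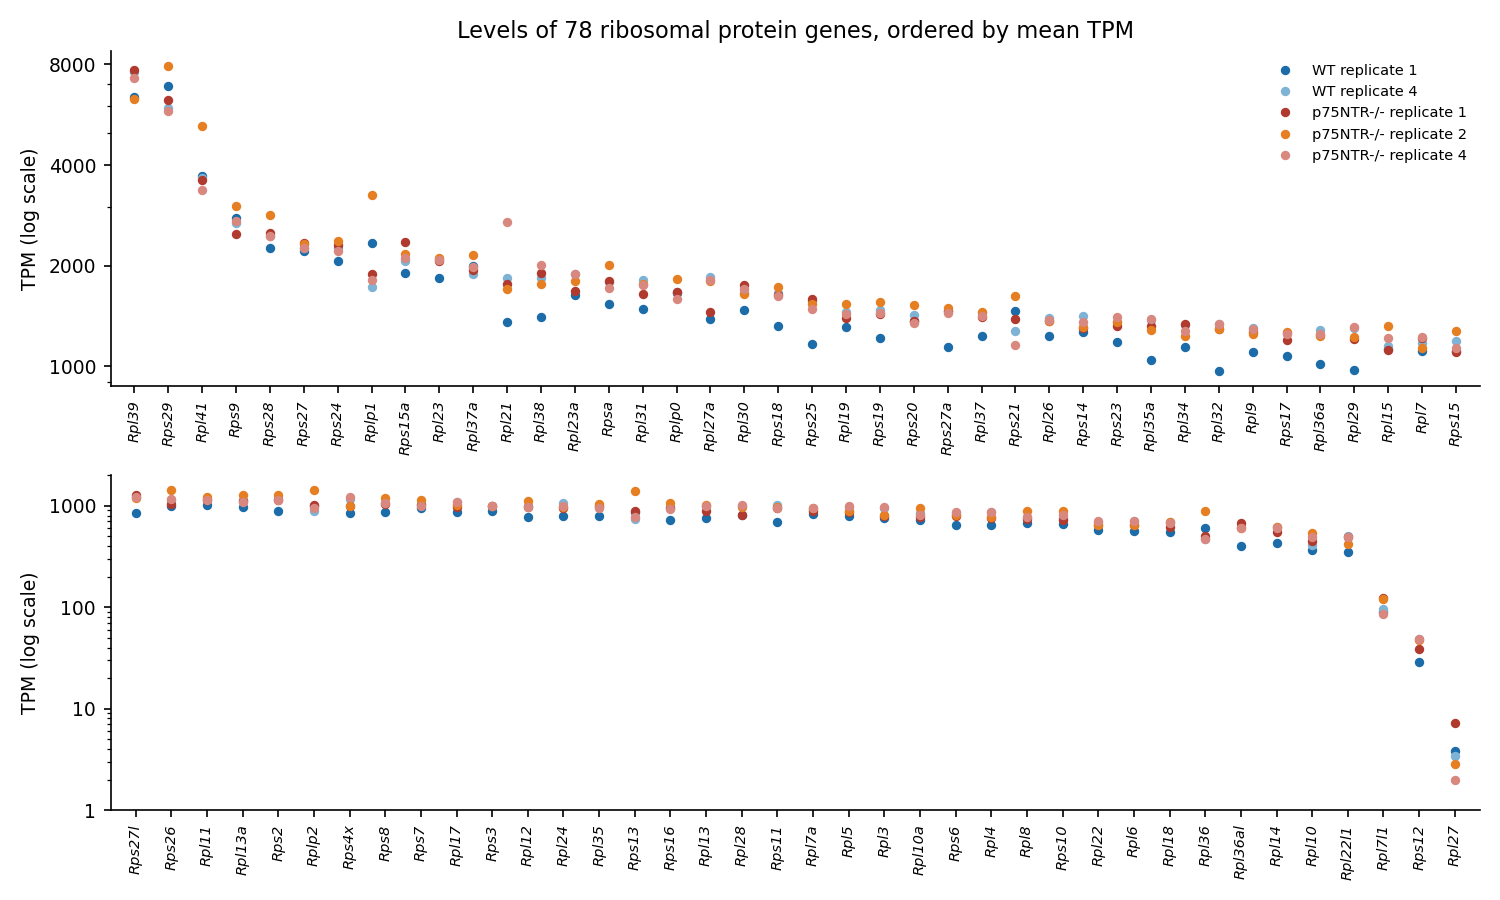
TPM (log scale) of 78 ribosomal protein genes in the 5 libraries, ordered by mean TPM from the top left to the bottom right, 1 point per library. Rpl39, Rps29 and Rpl41 stand above the rest, and Rpl7l1, Rps12 and Rpl27 lie far below the others.

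Rps12 and Rpl27 were low for the transcripts that the table lists. Rpl27 is represented by 1 of its 5 annotated transcripts (chr11:101443612-101445529, 4 exons), with 9.81, 9.36, 18.8, 7.21 and 5.28 normalized counts in WT replicates 1 and 4 and p75NTR-/- replicates 1, 2 and 4. The gene Rpl27-ps3, annotated as a processed pseudogene, shared 58.3% of the 31-base words of this transcript and was given 5946, 6587, 6752, 6975 and 6435 normalized counts. For Rps12, 3 of 9 annotated transcripts are listed. It had 76.5, 128, 117, 108 and 112 normalized counts, against 7014, 7999.6, 8424, 9478 and 8166 for Rps12-ps3, which GENCODE annotates as coding and which shared 64.4% of its words. Between 98.4% and 99.9% of the summed counts of these 2 pairs stood with the copy in each library. These 2 genes cannot be read as weakly expressed from this table.

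Shared sequence concerned most members. A median of 52.7% of the 31-base words of a gene's main transcript occurred in another annotated gene (up to 98.7% for Rps27), and for 42 of the 80 genes it was 50% or more. For 74 of the 80 genes, most of the other genes with such words were annotated as pseudogenes. The values of such members are uncertain, since counts could be split between the copies.

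The comparison of the labels asks which genes differ between p75NTR-/- and WT NSPCs. No ribosomal protein gene passed the threshold of the study's criteria (mean of at least 50 normalized counts, fold change of at least 1.5, adjusted p under 0.05 in limma with Benjamini-Hochberg adjustment over all genes). The share of all genes past it was 0.00794%, which is 1 gene. An unadjusted limma p under 0.05 was given to 0 of the 80 members, against 2.08% of all genes. The lowest adjusted p of a member was 0.93. For 46 members the 95% interval of the log2 fold change lay wholly within a 1.5-fold difference, and for the others it was wider.

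Small differences nevertheless leaned to the same side. The log2 fold change (p75NTR-/- label minus WT label) was above 0 for 75 members (93.8%), against 50.7% of all genes, and the median was 0.09, against 0.00 over all genes and 0.03 over the 359 other genes with a mean of at least 5000. The single values ran from -0.07 (Rpl27) to 0.36 (Rpl10), with a median SE of 0.18. The large subunit had a median of 0.08 with 46 of 49 genes above 0, and the small subunit a median of 0.13 with 29 of 31. The difference between the subunits was not tested.

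**Figure D2:**
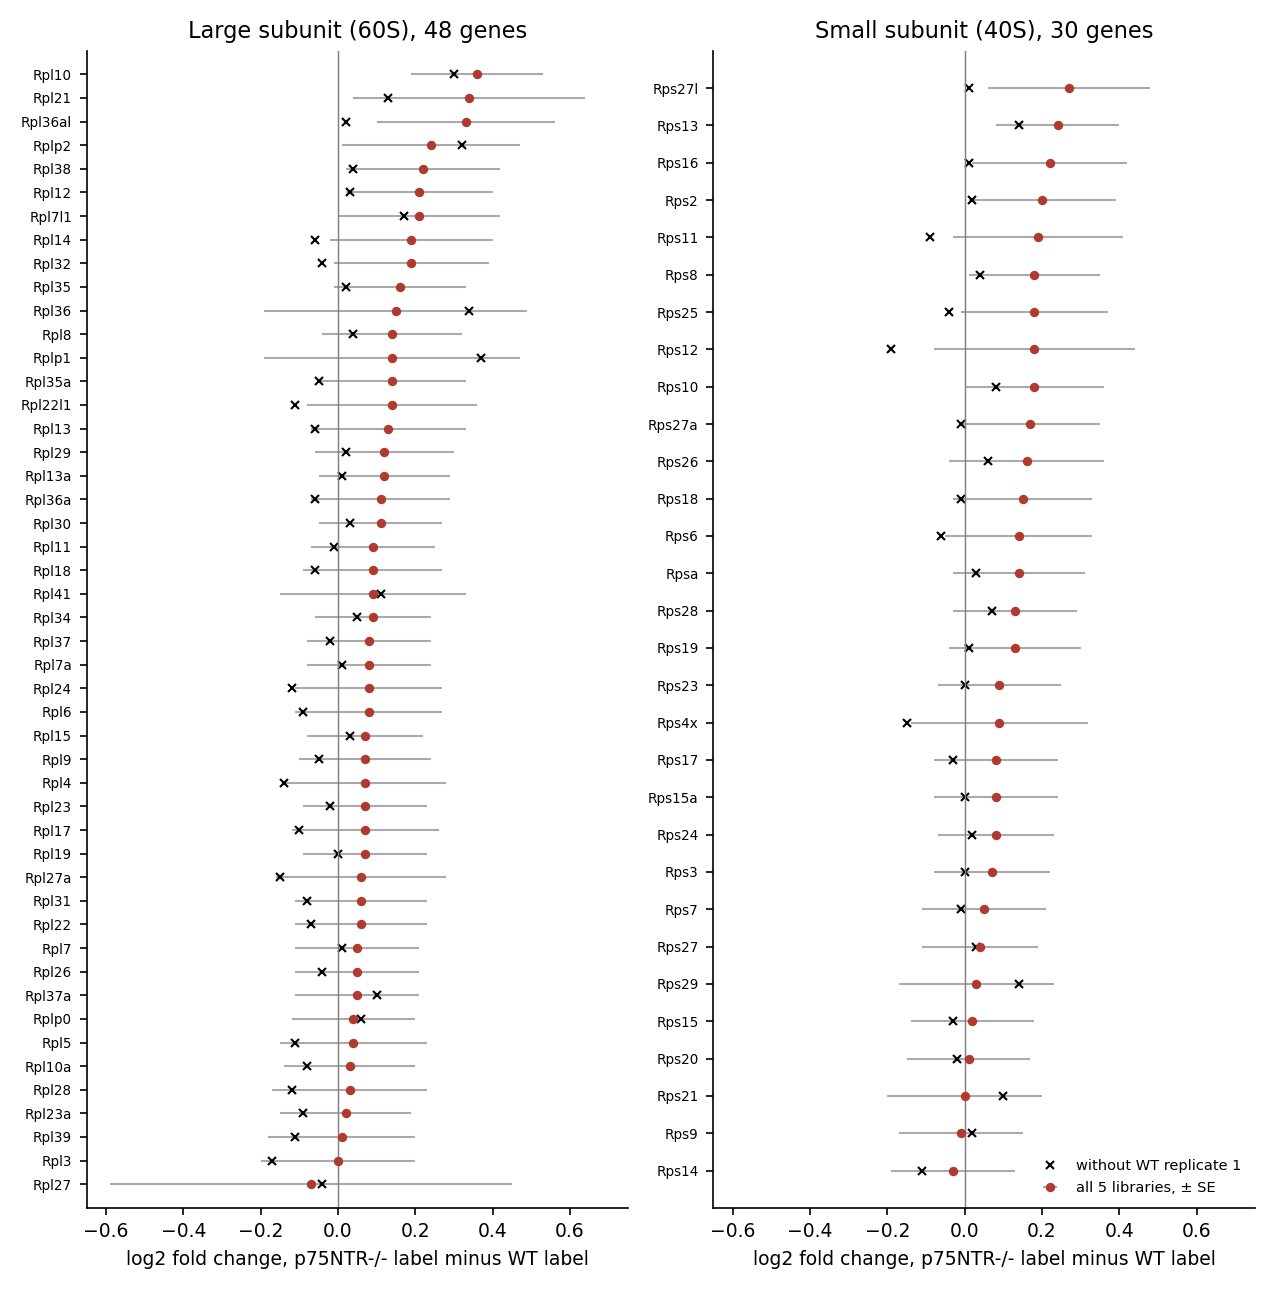
Log2 fold change (p75NTR-/- label minus WT label) of 78 ribosomal protein genes, ordered by size within the large and the small subunit. Red points with bars are the fit of all 5 libraries ± SE, and black crosses are the fit without WT replicate 1, most of which lie to the left of the red points.

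This lean rested on WT replicate 1. When each gene was centred on its mean over the libraries, the median of the 80 genes on the log2 scale was -0.17 in WT replicate 1 and 0.05 in WT replicate 4, and it was -0.02, 0.07 and 0.06 in p75NTR-/- replicates 1, 2 and 4. WT replicate 1 was the lowest library for 62 members (77.5%), against 31.5% of all genes, and the highest for 0 of them. Without it, the median log2 fold change was 0.00 and 37 of the 80 genes were higher under the p75NTR-/- label. Without WT replicate 4, the median was 0.20 and 74 genes were higher. Within replicate number 1 the median difference was 0.14 with 67 genes higher under the p75NTR-/- label, and within replicate number 4 it was 0.00 with 46 genes higher. In the replicate 4 libraries, 70 of the 80 genes differed by less than 0.1 on the log2 scale.

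**Figure D3:**
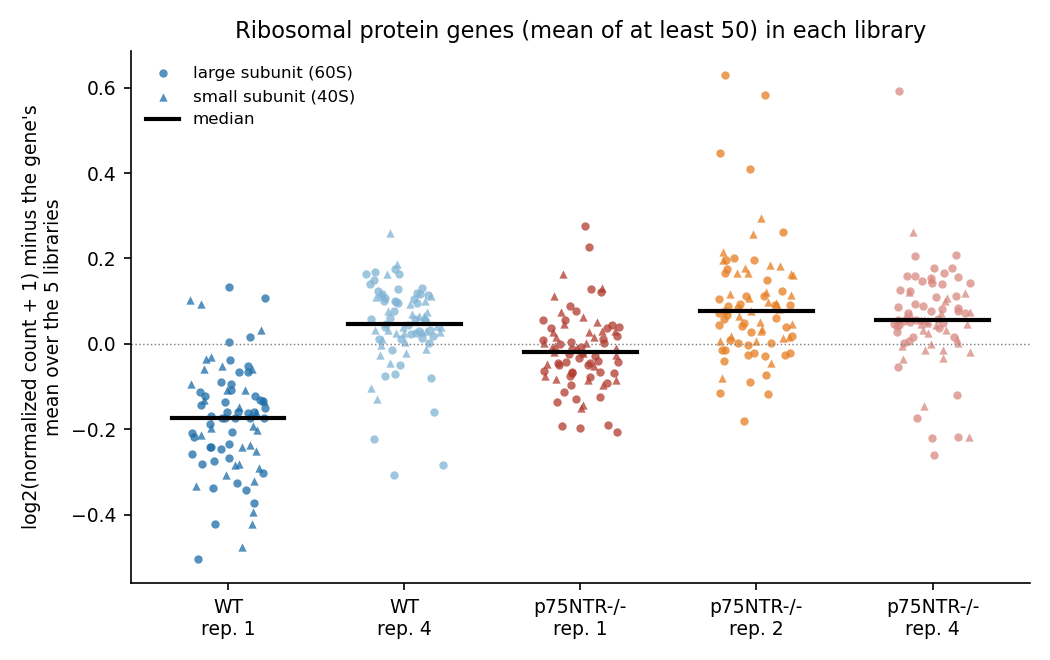
Deviation of each ribosomal protein gene with a mean of at least 50 normalized counts (79 genes) from its own mean over the 5 libraries, on the log2 scale, with circles for the large and triangles for the small subunit and a black line at the median. The medians are -0.17, 0.05, -0.02, 0.08 and 0.06 from left to right, and single genes stand above the rest in p75NTR-/- replicates 2 and 4.

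Groups that do not overlap were no more frequent than elsewhere in the table. In 5 members (6.25%) all libraries labelled p75NTR-/- were above both labelled WT, against 7.52% of all genes, and in 0 members they were below, against 7.53% of all genes. The 5 were Rpl10, Rps13, Rps28, Rpl34 and Rps27. Rps27, a zinc finger protein of the small subunit, was the steadiest, with 5444 and 5531 normalized counts under the WT label and 5687, 5599.5 and 5624 under the p75NTR-/- label, a range of 1.04-fold. Rps13, which helps join the subunits, had 4467 and 5102 against 5542, 5982 and 5360.4 normalized counts (log2 fold change 0.24 ± 0.16 SE, limma adjusted p = 0.93).

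Rpl10 (chrX:74270857-74273025, 7 exons), which joins the large subunit late in its assembly, had the highest log2 fold change of the family. It had 3630.0 and 3917 normalized counts in WT replicates 1 and 4, and 4367, 5239 and 4905 in p75NTR-/- replicates 1, 2 and 4. The groups did not overlap, but the log2 fold change of 0.36 ± 0.17 (SE) had a 95% interval of -0.08 to 0.79 (limma adjusted p = 0.93). In contrast to the family, it did not rest on WT replicate 1: the difference was 0.27 within replicate number 1, 0.32 within replicate number 4 and 0.30 without WT replicate 1. Its copy Rpl10-ps3, which GENCODE annotates as coding and which shared 92.9% of the 31-base words, had 4276 and 6529 against 4858, 4314 and 5473 normalized counts. The copy held between 45.2% and 62.5% of the sum of both genes, and the sum differed by 0.10 on the log2 scale, close to the family median.

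The paralogs were low in WT replicate 1. Rps27l, a p53-responsive paralog of Rps27, had 2076 and 2980.3 normalized counts in WT replicates 1 and 4, and 3116, 2849.6 and 3027 in p75NTR-/- replicates 1, 2 and 4. Its level per length was 38.1% of that of Rps27 in WT replicate 1 and between 50.8% and 54.8% in the other libraries. Rpl36al had 1545 and 2360.3 against 2563, 2284 and 2362 normalized counts, with 39.3% of the TPM of Rpl36a in WT replicate 1 and 47.7% to 54.0% elsewhere. For both paralogs WT replicate 4 stood among the p75NTR-/- libraries. The log2 fold changes of 0.27 ± 0.21 (Rps27l) and 0.33 ± 0.23 (Rpl36al) became 0.01 and 0.02 without WT replicate 1.

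Rpl22l1, a paralog of the RNA-binding protein Rpl22, had 1698 and 2401 against 2342, 1981 and 2395 normalized counts, and its log2 fold change of 0.14 ± 0.22 became -0.11 without WT replicate 1. Rpl7l1 followed another order, with 1265 and 1349 against 1729, 1636 and 1225 normalized counts. It was highest in p75NTR-/- replicates 1 and 2 and lowest in p75NTR-/- replicate 4. The partners moved less, with log2 fold changes of 0.06 (Rpl22), 0.11 (Rpl36a), 0.05 (Rpl7) and 0.04 (Rps27). No paralog shared a 31-base word with its partner, so their counts can be told apart from each other, although 20.8% to 61.4% of their words occurred in other genes. The 4 paralogs had a median deviation of -0.38 in WT replicate 1, against -0.17 for all 80 genes.

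Among members with a mean of at least 50 normalized counts, the largest departures from the rest of the family were found in single libraries. These genes were picked after their values were seen, and are described without a test. Rplp1, a stalk protein (chr9:61913284-61914542), had 9379.7 and 6908 normalized counts in WT replicates 1 and 4, and 7492, 12793 and 7351 in p75NTR-/- replicates 1, 2 and 4. Rpl36 (chr17:56613416-56614243) had 2253 and 1719.5 against 1831, 3238 and 1747, in the same order of libraries. Both were highest in p75NTR-/- replicate 2, next in WT replicate 1 and lower in p75NTR-/- replicate 1 and both replicate 4 libraries. Rplp2, the partner of Rplp1 in the stalk, had 4096 and 3670.0 against 4169, 5846 and 3946 normalized counts. Rpl41 had 2421 and 2367 against 2271, 3301 and 2204. In p75NTR-/- replicate 2 these 4 genes lay 0.34 to 0.55 above the median of the family on the log2 scale. Rplp0, the base of the stalk, departed less, with 23875 and 23005 against 22977, 26389 and 22906 normalized counts, although p75NTR-/- replicate 2 was again the highest. Rpsa, a small subunit protein also known as the laminin receptor, had 25554 and 29740 against 29539, 32729 and 28894.

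Rpl21 (chr5:146832890-146837032, 6 exons) was set apart by p75NTR-/- replicate 4. It had 10455 and 14112 normalized counts under the WT label and 13385, 12905 and 21102 in p75NTR-/- replicates 1, 2 and 4. The last library lay 0.54 above the family median on the log2 scale, and 0.58 above WT replicate 4, the library most like it. The log2 fold change of 0.34 ± 0.30 was 0.11 without p75NTR-/- replicate 4, 0.13 without WT replicate 1 and 0.56 without WT replicate 4. The main transcript of Rpl21 shared words with 116 other genes, of which 111 are pseudogenes, over 27.4% of its length.

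**Figure D4:**
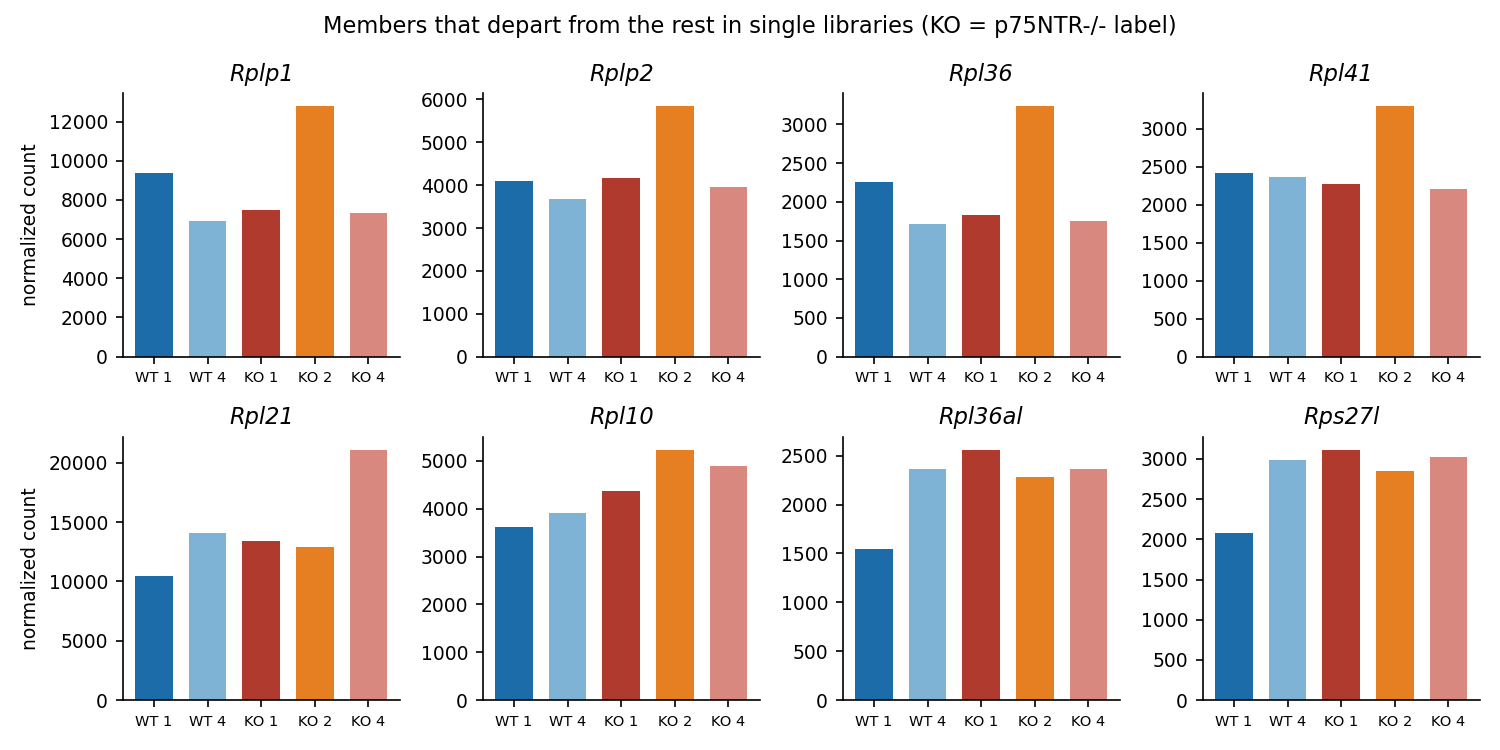
Normalized counts of 8 ribosomal protein genes in the 5 libraries, as bars from 0 (KO stands for the p75NTR-/- label, numbers are replicates). Rplp1, Rplp2, Rpl36 and Rpl41 peak in p75NTR-/- replicate 2, Rpl21 in p75NTR-/- replicate 4, Rpl36al and Rps27l are lowest in WT replicate 1, and Rpl10 is higher in all 3 libraries labelled p75NTR-/- than in both labelled WT.

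Base composition moved with p75NTR-/- replicate 2. Across 79 members, the deviation in this library correlated with the GC content of the main transcript (Pearson r = 0.53, Spearman rho = 0.56), whereas r was between -0.34 and 0.16 in the other libraries. The genes share libraries and are not independent, so the correlation is a description. Over 10696 other genes, r was 0.13 in p75NTR-/- replicate 2. The 20 members of highest GC content (54.6% to 60.8%) had a median deviation of 0.09 from the family median there, and the 20 of lowest (39.0% to 48.5%) one of -0.06. The part of base composition in the peaks of Rplp1, Rplp2, Rpl36 and Rpl41 was not tested.

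The lowest log2 fold changes among members with a mean of at least 50 were near 0. Rps14, a protein of the small subunit's platform, had 8442 and 9380.0 against 8509, 8516 and 9124 normalized counts (log2 fold change -0.03 ± 0.16 SE). Rps9 had -0.01, and Rpl3, which lies close to the peptidyl transferase centre, and Rps21 had 0.00. Rpl3 was highest in both replicate 4 libraries, with 24216 and 24963 normalized counts in WT and p75NTR-/- replicate 4, against 19358 in WT replicate 1 and 19815 and 20310.1 in p75NTR-/- replicates 1 and 2. Rps4x showed the same order, with 18094 and 19059 against 12999, 15021 and 15042. Of the members that bind Mdm2, Rpl5 followed this order too, with 17578 and 17969 normalized counts in the replicate 4 libraries and 14271, 15259 and 15644 in the others. Rpl11 did not, with 9008 and 10229.9 against 9859, 10458 and 10252 normalized counts. It was highest in p75NTR-/- replicate 2 and lowest in WT replicate 1.

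At the level of transcripts, 30 members were listed with more than 1 transcript, and 0 of 129 transcripts passed the threshold, against 0.0135% of all transcripts. An unadjusted limma p under 0.05 was given to 4 transcripts (3.10%), against 3.14% of all transcripts. The lowest was that of ENSMUST00000108624, a transcript of Rps9 (chr7:3704320-3706876, 3 exons). It was listed at 0 in both libraries labelled WT and had 74.2, 56.5 and 86.6 normalized counts in p75NTR-/- replicates 1, 2 and 4 (limma adjusted p = 0.013 over all transcripts). The paper lists this transcript as higher in p75NTR-/- cells, with a DESeq2 adjusted p above 0.05. It describes 4 replicates, a set that differs from the libraries here but comes from the same series. The paper's listing is therefore not independent of these values. The mean of the transcript was under 50 here, so it did not meet the study's criteria. All of its exonic bases lie in other annotated transcripts of Rps9, and it made up 0.387% of the gene in p75NTR-/- replicate 2, so this value depends on how reads were divided among transcripts. Rps9 as a whole had 13853 and 13301 against 12663, 14577 and 13348 normalized counts.

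The other 3 transcripts were minor forms of Rpl13a, Rpl18 and Rpl3, each with a limma adjusted p of 0.96. The form of Rpl3, annotated as a target of nonsense-mediated decay (ENSMUST00000187832), had 48.1 and 65.5 against 119, 127 and 85.6 normalized counts. That of Rpl13a, also a decay target (ENSMUST00000210191), had 9.81 and 5.20 against 13.8, 40.9 and 24.3. The form of Rpl18 (ENSMUST00000211435) had 0 and 6.24 against 12.9, 13.2 and 18.0. The 11 decay-target transcripts of the family made up 0.119% and 0.0480% of its counts in the libraries labelled WT and 0.109%, 0.211% and 0.0836% in those labelled p75NTR-/-. Groups did not overlap in 14 transcripts that were higher (10.9%, against 8.94% of all transcripts) and 1 that was lower (0.775%, against 7.61%).

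Other transcripts differed more between libraries than between labels. The decay target ENSMUST00000205906 of Rps13 had 238 and 7.28 normalized counts in WT replicates 1 and 4, and 84.1, 532 and 14.8 in p75NTR-/- replicates 1, 2 and 4. It was thus low in both replicate 4 libraries and made up 8.90% of the gene in p75NTR-/- replicate 2. ENSMUST00000223999 of Rps24 showed the reverse order, with 105 and 321 against 119.7, 92.5 and 244.

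Gene groups around the ribosome were set beside the family, and none of their genes passed the threshold. The mitochondrial ribosomal proteins, encoded by other nuclear genes, had a median log2 fold change of 0.11, with 67 of 78 above 0, and their median deviation in WT replicate 1 was -0.17, as in the cytosolic family. Without this library the median was 0.02, with 45 of 78 above 0. Rps3a1, a small subunit protein that the symbol rule does not take in, had 16221 and 18225 against 18308, 18048 and 18179 normalized counts. The 3 listed copies with -ps in their symbol had a median of 0.10. Of these, GENCODE annotates Rpl27-ps3 as a pseudogene and Rpl10-ps3 and Rps12-ps3 as coding. The 6 elongation factors had a median log2 fold change of 0.07 (3 above 0), the 28 initiation factors one of 0.15 (21 above 0) and the 19 other TOP mRNAs one of 0.01 (11 above 0). Without WT replicate 1 these medians were -0.08 (1 above 0), -0.01 (13 above 0) and -0.11 (4 above 0). That of the -ps copies was 0.03 without it. Npm1, a TOP mRNA that encodes a nucleolar chaperone, had 7611 and 11718 against 12606, 11972 and 11201 normalized counts. Some lists share genes, so their medians are not independent. The TOP list shares Eef2 with the elongation factors, Eif4b with the initiation factors and Npm1 with the ribosome assembly factors, among others.

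The groups that build ribosomes were further apart between libraries than the ribosomal proteins. All 40 ribosome assembly factors had a log2 fold change above 0, with a median of 0.49. They were lowest in WT replicate 1 in 39 of 40 cases, with a median deviation of -0.69 there. Without that library the median log2 fold change was 0.09, with 29 of 40 above 0. Within replicate number 4 the median difference was -0.06, with 9 of 40 higher under the p75NTR-/- label. Gar1, a protein of the H/ACA particles that guide pseudouridylation, had 111 and 216 against 328, 284 and 251 normalized counts (log2 fold change 0.88 ± 0.33 SE, limma adjusted p = 0.93). Polr1b, a subunit of RNA polymerase I, had 214 and 352 against 579, 529.8 and 375 normalized counts. The 20 RNA polymerase I and rDNA factors had a median log2 fold change of 0.22 (15 above 0) and the 7 chaperones of ribosomal proteins one of 0.18 (5 above 0), which were 0.07 (12 above 0) and 0.10 (5 above 0) without WT replicate 1. The 17 regulators of TOP mRNAs and growth had a median of 0.01 (0.08 without WT replicate 1), among them Myc, a transcription factor that promotes ribosome production, with 452 and 1012 against 1667, 1338 and 975 normalized counts. Of 14 snoRNA host genes, 0 had a gene sum here.

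Markers of cell state differed between the libraries as well. All 12 proliferation markers were above 0 in log2 fold change (median 0.64), and 11 were lowest in WT replicate 1, where their median deviation was -0.75. It was 0.03 in WT replicate 4, and 0.41, 0.46 and -0.05 in p75NTR-/- replicates 1, 2 and 4, so both replicate 4 libraries lay below p75NTR-/- replicates 1 and 2. Without WT replicate 1 all 12 were still above 0, with a median of 0.25. Within replicate number 4, however, the median difference was -0.08, and 2 of the 12 were higher under the p75NTR-/- label. The summed level of all 12 was 534 TPM in WT replicate 1 and 838 to 1206 TPM in the other libraries. The 8 astrocyte markers summed to 3519 TPM in WT replicate 1 and to 1399 to 1798 TPM elsewhere, and 0 of the 8 were lowest there. Their median deviation was 0.90 and 0.25 in WT replicates 1 and 4, and -0.70, -0.51 and 0.31 in p75NTR-/- replicates 1, 2 and 4. The median log2 fold change of -0.84 was -0.59 without WT replicate 1, with 2 of the 8 above 0. Within replicate number 4 the median difference was 0.01, with 4 of the 8 higher under the p75NTR-/- label. Sparcl1 led the summed level in WT replicate 1, with 1412 TPM against 413 to 787 TPM elsewhere. Gja1, S100b, Aldoc and Slc1a2 were also highest in that library, whereas Gfap, Aqp4 and Aldh1l1 were not. The 14 NSPC markers summed to 8288 TPM in WT replicate 1 and 8531 to 9682 TPM elsewhere, a sum led by Fabp7. Their median deviation ran the other way and was highest in WT replicate 1 (0.22, against -0.22 to 0.11 elsewhere), with 4 of the 14 lowest there. The part of these differences in the low ribosomal protein values of WT replicate 1 was not tested.

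**Figure D5:**
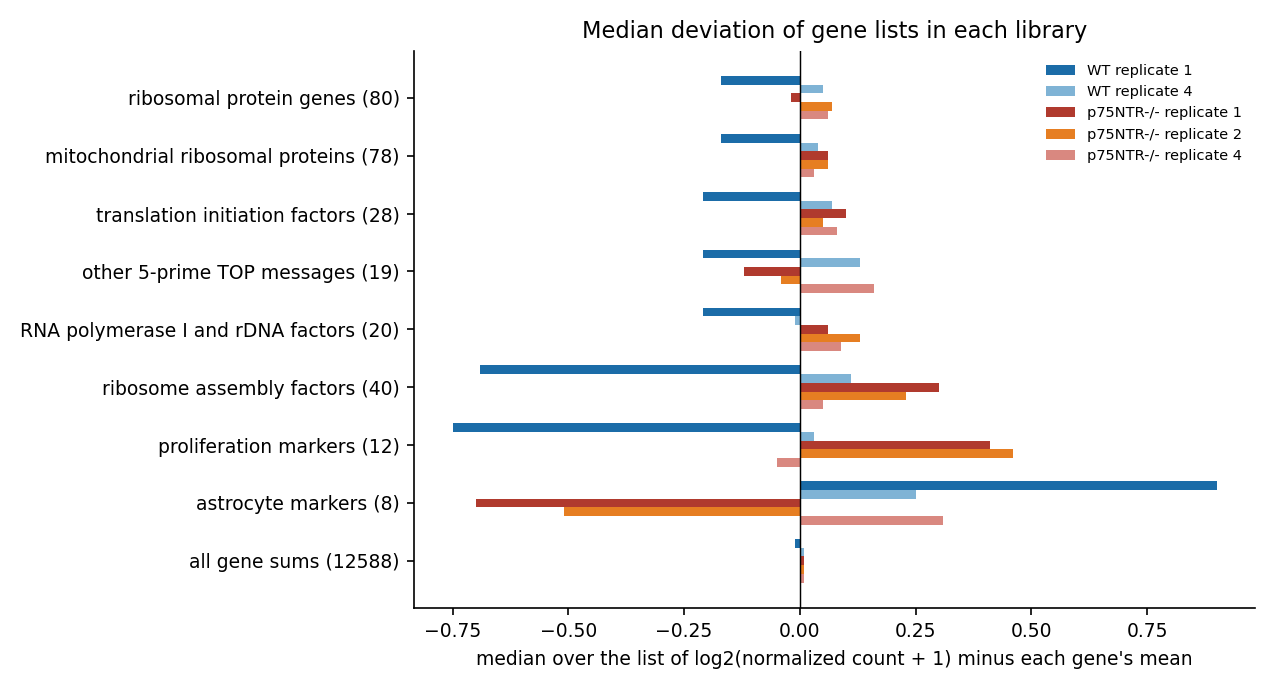
Median deviation of each gene list from the genes' own means over the 5 libraries (log2 scale), 1 bar per library, with the number of genes in brackets. WT replicate 1 is low for ribosomal protein genes (-0.17), lower for ribosome assembly factors (-0.69) and proliferation markers (-0.75), and high for astrocyte markers (0.90), while all genes lie near 0 in every library.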

How the data were processed

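RNA-Seq of 5 NSPC libraries (500 ng RNA each, stranded mRNA kit) was analysed. Per the submitters' processing notes, the authors quantified the reads with Salmon 0.10.2 and normalized them with DESeq2 1.22.0 in R 3.6.1, on GRCm38.p6. The deposited signals are counts after division by a size factor, with 0.5 added. The authors' TPM columns are deposited as scores. Of 22530 lines, 303 repeat a transcript. The authors' baseMean, another deposited score, and their deposited log2 fold changes and p-values hold their own comparison and were not used. The number of per-sample columns not used was 0.

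Repeats were dropped, 0.5 was subtracted and transcripts were summed per symbol (16 transcripts had none and kept their identifier). limma 3.58.1 (R 4.3.3) was fitted on log2(sum + 1) of all 12588 genes, without covariate or filter, with Benjamini-Hochberg adjustment. Fold changes are on this scale. A count of 3 corresponds to 2.94 to 3.60 normalized counts. The fit was tested on simulated data. All 129 member transcripts were matched to GENCODE M21 (GRCm38), and 31-base words were compared with all its transcripts. Tables were handled with pandas 2.3.3.

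Members, gene lists and tests were chosen with earlier results of these data known. Named were members past the threshold or with an unadjusted p under 0.05, the 5 highest and 5 lowest fold changes and levels, the paralog pairs, the stalk genes and Rpsa, and up to 3 genes per list by lowest p. Rpl36, Rps4x, Rpl11 and other members outside this rule were added after their values were seen. Alternatives were other pseudocounts, filters, scalings, priors, units, a replicate block and leaving out each library. A few genes are counted in the totals and not reported by name here.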

Additional observations from a re-analysis of the deposited data

How the results depend on the processing

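The count of 0 ribosomal protein genes past the threshold held under every alternative run. The median log2 fold change (0.09) stayed between 0.08 and 0.12 except without WT replicate 1 or 4 and within the replicate numbers. Leaving out each library in turn gave 0.00 to 0.20, with 37 to 76 of 80 genes higher under the p75NTR-/- label (main value 75). The lowest values came without WT replicate 1. Within replicate numbers 1 and 4 the medians were 0.14 and 0.00, and 46 genes were higher within number 4; these alternatives were added after the data were seen. Unadjusted p-values under 0.05 were 0 in the main fit, 4 for single transcripts, 1 (Rpl10) with a trended robust prior and 0 to 3 with a library left out (Rpl36al, Rps12 and Rps27l without WT replicate 4). Of all 12588 genes, 246 had one with that prior and 1759 without WT replicate 4, which leaves 1 library under the WT label, assumed to vary like the others. The difference in share (0.336 percentage points) was 0.834 for TPM and 0.0427 to 0.630 with a library left out.

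Neither the labels nor the paper ties a replicate number to a litter or day, and only numbers 1 and 4 occur under both labels. Deviations from the label means correlated at 0.26 and 0.48 for these pairs, and at -0.30 and 0.63 across members with a mean of at least 50. The value was 0.48 for WT replicate 1 with p75NTR-/- replicate 2. Deviations of the 2 libraries labelled WT mirror each other, so these correlations are not separate. They cannot show whether the numbers pair libraries. With the replicate block 0 members passed, the median was 0.08 and 67 genes were higher. In the block p75NTR-/- replicate 2 stands alone, so these fold changes equal those without that library. The block turned Rpl27 to 0.08, Rpl41 to -0.10, Rplp0 to -0.03, Rplp1 to -0.12 and Rps29 to -0.09. Rpl27 was 0.01 when scaled to the table total. Rpl3 and Rps21, at 0.00 in the full fit, ranged from -0.17 to 0.16 and from -0.11 to 0.11 with a library left out. Leaving out libraries turned the sign of genes near 0, with ranges of -0.07 to 0.20 for Rpl22, -0.11 to 0.39 for Rpl22l1, -0.56 to 0.27 for Rpl27, -0.06 to 0.28 for Rpl36a, -0.11 to 0.14 for Rpl39, -0.10 to 0.19 for Rpl41, -0.03 to 0.07 for Rplp0, -0.12 to 0.37 for Rplp1, -0.19 to 0.55 for Rps12, -0.11 to 0.05 for Rps14, -0.09 to 0.14 for Rps29 and -0.06 to 0.04 for Rps9. The cause was not tested. The remaining 304 values of named genes kept their direction or lay at 0.00. The planned tests on whole read counts were not run. With 2 against 3 libraries and a median SE of 0.18, differences of the size seen here could not be resolved.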
